A study of Mus musculus with 3 samples.

Results

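The genes described here are the 5 Notch ligand genes Dll1, Dll3, Dll4, Jag1 and Jag2 and the 3 fringe genes Lfng, Mfng and Rfng of the mouse. They were chosen as a family, by their symbols, from the 31053 genes that were counted in each of 3 rhabdoid tumours, and all 8 were found in all 3 tumours. The rule that picks them uses symbols and no measured value, but the family was chosen with earlier results of these data known.

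Notch signalling works between neighbouring cells: a ligand on a sending cell pulls on a Notch receptor of a receiving cell, the receptor is cut, and its inner part enters the nucleus, where it binds RBPJ and switches on target genes of the Hes and Hey families. In the embryonic forebrain, progenitors that begin to form neurons carry Delta ligands and so keep their neighbours in a stem-like state. Fringe enzymes add sugar to the Notch receptors in the Golgi and thereby change which ligands they answer to, and in growing vessels Dll4 is known from tip and arterial endothelial cells.

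All 3 tumours arose in mice labelled Rosa 26-CreERT2::Smarcb1flox/flox, in which tamoxifen activates the recombinase and floxed Smarcb1, which encodes a core part of the SWI/SNF remodeller, is deleted. Rosa26 is active in nearly all tissues, so the recombination is not confined to a cell type, and the mice were of mixed 129/SV and C57BL/6 background. The authors describe the sequenced tumours as Shh tumours of the basal ganglia. They obtained Shh brain tumours in this model only after their earliest, embryonic, deletion of Smarcb1. The samples form the single group R26-SHH with 1 tumour each, and no tumour-free or untreated sample was analysed here. All comparisons are therefore between classes of cells within the same tumours, and the numbers 1 to 3 only name the tumours. The p-values rest on the spread among these 3 tumours that remains once each tumour's own level is taken out. Except for cycling cells, that spread was estimated jointly over all classes, not only from the classes compared. The ages of the mice are not given in the sources used here.

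The tumours gave 12467, 9485 and 6428 barcodes with totals of 79529921, 40151353 and 67645602 UMIs (unique molecular identifiers, each standing for 1 captured transcript). The methods name a target of recovered cells per sample far below these numbers, and which barcodes the authors kept as cells is not known here. Pairs of tumours shared 22 to 42 barcode sequences. After filtering, 20907 cells remained, with median depths of 7130.5, 2364.5 and 8192 UMIs. Cells with at least 2000 UMIs (13464 cells) were sorted into classes by fixed marker genes, none of which is a Notch ligand or fringe gene. Of these, 6561 cells fell into 4 tumour states, namely progenitor-like (1865 cells, markers such as Dlx1 and Dlx2), neuronal-like (1139, Dcx, Stmn2), stem-like (1943, Sox2, Fabp7) and mesenchymal-like (1614, Twist1, Col1a1). Classes gated by host markers were endothelial-like (228 cells), mural-like (151) and immune-like (1267), and small oligodendrocyte precursor-like, oligodendrocyte-like and astrocyte-like classes had at least 20 cells in tumours 1 and 2 only. The tumour states are ranges of a score, and 650 of their cells (9.91%) lay close to a cut, while 4599 tumour cells took no state. Levels are given as CPM, the UMIs of a gene per 1000000 UMIs of its class. Smarcb1, the deleted gene, was at 0 to 1.33 CPM in the tumour states and at 19.9 to 76.8 CPM in the endothelial-like, mural-like and immune-like classes. In the astrocyte-like class it was at 0 CPM in tumour 1 (0 UMIs, exact 95% limit 11.5 CPM) and at 22.1 CPM in tumour 2, so the label of a host class is not borne out for these cells in tumour 1. The mesenchymal-like class differed between tumours in its own markers, with 324, 299 and 9.47 CPM of Col1a1, 315, 237 and 31.8 CPM of Col1a2 and 63.9, 50.2 and 360.02 CPM of Fn1 in tumours 1, 2 and 3. Its cells also carried more UMIs of the stem-like list (medians of 19.7, 16.1 and 16.8 per 10000 UMIs) than of the mesenchymal-like list (14.995, 14.7 and 7.91), and in tumour 3 more of the progenitor-like list (12.4). Of these cells, 21.7% lay in Leiden clusters named mesenchymal-like.

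The genes lie on 7 chromosomes of the GRCm38 build, with positions from the GENCODE M21 annotation. Dll1 (ENSMUSG00000014773) lies on chromosome 17 from 15367354 to 15376872, Dll3 (ENSMUSG00000003436) on chromosome 7 from 28293553 to 28302238 and Jag2 (ENSMUSG00000002799) on chromosome 12 from 112907819 to 112929776, all on the minus strand. Dll4 (ENSMUSG00000027314) lies on chromosome 2 from 119325784 to 119335962 on the plus strand, and Jag1 (ENSMUSG00000027276) on the same chromosome from 137081456 to 137116644 on the minus strand. Lfng (ENSMUSG00000029570) lies on chromosome 5 from 140607320 to 140615545 on the plus strand, Mfng (ENSMUSG00000018169) on chromosome 15 from 78755882 to 78773475 and Rfng (ENSMUSG00000025158) on chromosome 11 from 120780746 to 120784207, the last 2 on the minus strand. Exons of Dll1 overlap those of the non-coding gene A930024N18Rik on the other strand, which was also counted, and exons of Dll4 overlap those of Gm14207, so a few UMIs of either could be misassigned.

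Promoter sequences were taken from RefSeq (GRCm38.p6), from 250 bases before to 50 bases after the start, and 7 of the 8 genes matched an entry. Shown, as a choice made after the values were seen, are the 4 genes that were lower together in neuronal-like than in progenitor-like cells, and Dll4 for the endothelial-like cells. The E-box CAGCTG and the RBPJ motif GTGGGAA were searched on both strands (CAGCTG is its own reverse complement). Capitals mark these motifs, which did not overlap each other. Dll1 has 2 entries, and the one printed is that with the motif.
Dll1, chr17:15376883-15377182, minus strand: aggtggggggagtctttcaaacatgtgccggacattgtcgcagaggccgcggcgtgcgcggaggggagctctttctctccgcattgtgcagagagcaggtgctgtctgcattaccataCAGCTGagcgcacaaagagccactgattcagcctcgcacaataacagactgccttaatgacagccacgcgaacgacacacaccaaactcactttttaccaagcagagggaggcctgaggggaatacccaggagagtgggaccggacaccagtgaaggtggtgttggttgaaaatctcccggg
Dll3, chr7:28301736-28302035, minus strand: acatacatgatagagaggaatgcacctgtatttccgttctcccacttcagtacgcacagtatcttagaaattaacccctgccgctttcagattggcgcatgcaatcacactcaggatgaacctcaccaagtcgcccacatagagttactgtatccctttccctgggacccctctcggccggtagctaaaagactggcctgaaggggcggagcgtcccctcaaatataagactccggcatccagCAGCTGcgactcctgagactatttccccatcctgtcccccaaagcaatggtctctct
Jag1, chr2:137116471-137116770, minus strand: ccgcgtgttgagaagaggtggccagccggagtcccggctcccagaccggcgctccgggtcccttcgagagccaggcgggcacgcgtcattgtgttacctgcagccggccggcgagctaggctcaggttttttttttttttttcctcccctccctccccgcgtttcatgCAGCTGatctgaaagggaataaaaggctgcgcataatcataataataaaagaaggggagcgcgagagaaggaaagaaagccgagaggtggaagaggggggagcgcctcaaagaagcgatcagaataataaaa
Lfng, chr5:140607091-140607390, plus strand: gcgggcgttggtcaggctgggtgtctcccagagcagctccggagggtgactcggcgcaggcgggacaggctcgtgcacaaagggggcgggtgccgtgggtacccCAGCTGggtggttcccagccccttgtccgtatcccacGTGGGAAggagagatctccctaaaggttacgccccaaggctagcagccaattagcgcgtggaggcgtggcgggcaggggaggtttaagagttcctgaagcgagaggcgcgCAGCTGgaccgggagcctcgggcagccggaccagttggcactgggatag
Dll4, chr2:119325534-119325833, plus strand: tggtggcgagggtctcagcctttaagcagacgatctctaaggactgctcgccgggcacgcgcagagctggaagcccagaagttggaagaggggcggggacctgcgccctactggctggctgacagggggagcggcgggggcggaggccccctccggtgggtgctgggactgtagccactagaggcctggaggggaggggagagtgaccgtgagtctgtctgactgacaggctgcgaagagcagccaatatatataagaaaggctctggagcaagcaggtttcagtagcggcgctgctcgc
CAGCTG stood once in the promoters of Dll1, Dll3 and Jag1 and 2 times in that of Lfng. It was in none of the windows of Dll4, Jag2 and Rfng, nor in the other entry of Dll1. Of 32851 mouse promoters of the same length, 16.3% hold CAGCTG. The RBPJ motif was found in the window of Lfng alone among the matched genes, and 6.38% of all promoters hold it. These matches describe letters and were not tested as binding sites.

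Among the ligands, Dll1, Dll3, Jag1, Dll4 and Jag2 divided over the classes in 3 ways: Dll1 and Dll3 were highest in progenitor-like tumour cells, Dll4 and Jag2 in endothelial-like cells and Jag1 in mural-like cells. Levels are CPM of the summed UMIs of a class, and they are compared for 1 gene between classes, not between genes. A class is summed over its cells, so more expressing cells and more RNA per cell are not separated by the level alone.

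**Figure D1:**
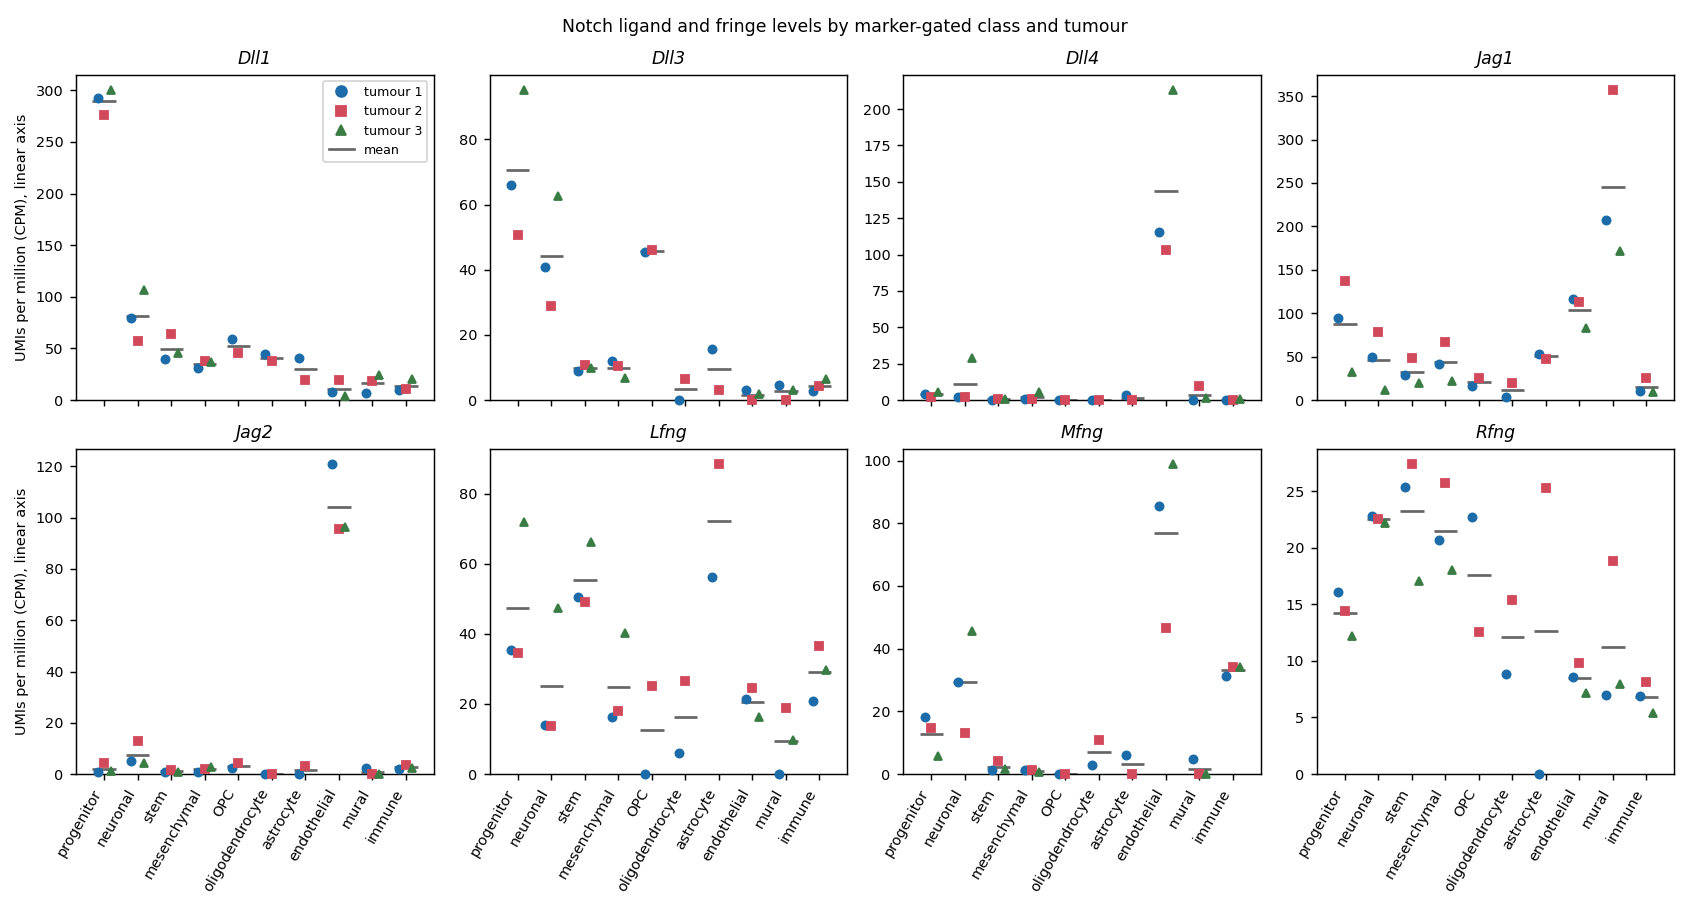
Levels of the 5 ligand and 3 fringe genes in each class of cells (horizontal axis), in CPM on a linear axis (vertical), with 1 point per tumour, a bar at the mean and a vertical scale of its own in each panel. OPC stands for oligodendrocyte precursor. Dll1 stands highest in the progenitor-like class of all 3 tumours (277 to 300.4 CPM), Jag2 and Dll4 in the endothelial-like class, and Jag1 in the mural-like class.

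Dll1, the Delta ligand that progenitors use for lateral inhibition, was at 292, 277 and 300.4 CPM in progenitor-like cells of tumours 1, 2 and 3. The neuronal-like cells held 79.3, 57.1 and 106 CPM and the stem-like cells 40.1, 63.6 and 45.4 CPM. No class reached the lowest progenitor-like tumour. The next levels, in neuronal-like and oligodendrocyte precursor-like cells (52.5 ± 9.28 CPM, SD, n = 2), overlapped. With every cell thinned to 2000 UMIs, 29.8, 29.4 and 33.2% of the progenitor-like cells showed a Dll1 UMI. The share was 2.26, 2.20 and 3.40% in the immune-like cells, a type that should lack the gene and whose median depth before thinning was 8689, 6825 and 11635 UMIs against 9877.5, 7874 and 20328.5 in the progenitor-like cells. Without thinning, 55.8% of progenitor-like cells in tumour 1 had a Dll1 UMI.

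Dll3, which acts inside the cell as a brake on Notch rather than as a ligand that activates it in neighbours, was at 66.1, 50.5 and 95.2 CPM in progenitor-like cells. The neuronal-like class had 40.8, 29.0 and 62.7 CPM, and in each tumour lay below the progenitor-like class, although the ranges over tumours overlap. The oligodendrocyte precursor-like cells of the host had 45.5 and 46.0 CPM, from 20 and 11 UMIs. In stem-like cells the level was 8.98, 10.9 and 9.77 CPM, and in endothelial-like, mural-like and immune-like cells it was between 0 and 6.34 CPM. No stem-like, vascular or immune-like sum reached the lowest of the neuronal-like class. With cells thinned to 2000 UMIs, 12.0, 10.9 and 15.4% of progenitor-like and 0.174, 1.10 and 2.04% of immune-like cells showed a Dll3 UMI.

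Dll4, the Delta ligand of sprouting vessels, was at 116, 103 and 213 CPM in the endothelial-like class. In mural-like cells, which wrap the same vessels, the 3 tumours together gave 2 UMIs of Dll4. Immune-like cells gave 1 UMI in each tumour. Tumour cells were not empty of Dll4: the neuronal-like class of tumour 3 held 29.1 CPM, while those of tumours 1 and 2 held 1.80 and 2.16 CPM. The 46 UMIs in tumour 3 lay in 23 of 112 cells, with at most 5 in a single cell. The 9 endothelial markers summed to 13.9 CPM there against 11205 CPM in the endothelial-like class of that tumour, and to 7.44 and 19.5 CPM in the neuronal-like classes of tumours 1 and 2. In progenitor-like cells Dll4 was at 4.37, 2.31 and 5.29 CPM, and in tumours 1 and 3 up to 10 and 12 of its UMIs lay in 1 cell. At equal depth, 24.1, 19.4 and 37.9% of endothelial-like cells showed a Dll4 UMI, against 0.174, 0 and 0.680% of immune-like cells (for 0 of 545 cells in tumour 2 the exact 95% Clopper-Pearson interval reaches 0.675%).

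Jag1, a Jagged ligand expressed by vessel walls and by ventricular progenitors, reached 208, 357 and 171 CPM in mural-like cells. The endothelial-like class followed with 117, 113 and 82.7 CPM, below the mural-like class in each tumour and without overlap of the ranges. Progenitor-like cells held 94.7, 137 and 31.7 CPM, so tumour 2 was the highest and tumour 3 the lowest. The same order of tumours, 2 above 1 above 3, held in the neuronal-like, stem-like, mesenchymal-like and mural-like classes. In immune-like cells Jag1 was at 10.8, 25.3 and 9.26 CPM, again highest in tumour 2.

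Jag2, the other Jagged ligand, was at 121, 95.5 and 96.2 CPM in endothelial-like cells. Neuronal-like cells came next with 5.13, 12.97 and 4.43 CPM, from 20, 42 and 7 UMIs. The mean of every other class was at or below 3.23 CPM. A Jag2 UMI was seen in 25%, 17.7% and 24.1% of endothelial-like cells at equal depth, and in 0.174, 0.917 and 0.680% of immune-like cells.

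The fringe genes were spread differently. Lfng (Lunatic fringe), known from radial glia and neural stem cells, stood at 50.4, 49.1 and 66.3 CPM in stem-like and at 35.4, 34.6 and 72.0 CPM in progenitor-like cells, whose ranges overlap. The astrocyte-like class had 56.2 and 88.4 CPM, of which the first comes from the 39 cells of tumour 1 without a Smarcb1 UMI. In tumours 1 and 2 its cells carried more UMIs of the stem-like list (medians of 93.9 and 72.3 per 10000 UMIs) than of the astrocyte-like list (56.3 and 49.7). Tumour 3 was the highest in the progenitor-like, neuronal-like, stem-like and mesenchymal-like classes alike. Lfng was also present in immune-like cells, at 21.0, 36.6 and 29.7 CPM.

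Mfng (Manic fringe) was highest in the endothelial-like class with 85.6, 46.5 and 98.9 CPM. Immune-like cells held 31.2, 34.2 and 34.1 CPM with little spread, and neuronal-like cells 29.5, 12.97 and 45.6 CPM. The progenitor-like class lay at 18.1, 14.7 and 5.83 CPM and the stem-like class at 1.30, 4.18 and 1.54 CPM. Since immune-like cells carry Mfng themselves, they are no background for this gene.

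Rfng (Radical fringe) was the most even of the 8, with class means between 6.80 and 23.3 CPM. It was at 22.8, 22.5 and 22.2 CPM in neuronal-like cells, at 16.1, 14.4 and 12.2 CPM in progenitor-like cells and at 8.56, 9.80 and 7.19 CPM in endothelial-like cells. The neighbours in its order, stem-like, neuronal-like and mesenchymal-like cells, overlapped.

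The comparison of neuronal-like with progenitor-like cells asks how the ligands differ between tumour cells with progenitor markers and those with neuronal markers. In neuronal-like cells Dll1 was lower by a log2 difference of -1.99 ± 0.23 (SE), Lfng by -1.18 ± 0.34, Jag1 by -1.01 ± 0.26 and Dll3 by -0.83 ± 0.25, each in 3 of 3 tumours. Jag2 was higher by 2.07 ± 0.46 in 3 of 3 tumours, on 69 UMIs in neuronal-like and 33 in progenitor-like cells. In progenitor-like cells these were 8, 15 and 10 UMIs, with at most 1 in a cell. The progenitor-like level of Jag2 (0.685 to 4.33 CPM) overlapped that of immune-like cells (1.92 to 3.40 CPM). The adjusted p-values of the edgeR quasi-likelihood test over 14392 genes were 2.61e-06 for Dll1, 0.0172 for Lfng, 0.00939 for Jag1, 0.0252 for Dll3 and 0.00286 for Jag2. Thus 5 of the 8 genes passed (1 higher and 4 lower), where 16.4% of all genes did (9.55% higher and 6.85% lower). Mfng (1.02 ± 0.42, higher in 2 of 3 tumours), Dll4 (0.70 ± 0.55) and Rfng (0.50 ± 0.24) did not pass, with edgeR adjusted p-values of 0.104, 0.436 and 0.174. Rfng passed by DESeq2 (0.55, adjusted p = 0.0265) and with a stricter gate (0.70, edgeR adjusted p = 0.0350), and Mfng with no count filter (0.99, 0.00837). The median over the 8 genes was -0.17 and that over all genes -0.00034.

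Without tumour 1 only Dll1 passed (Jag2 1.79, edgeR adjusted p = 0.118; Dll3 0.234, Jag1 0.191, Lfng 0.194), and without tumour 2 only Dll1 and Jag2 did (Dll3 0.147, Jag1 0.0878, Lfng 0.133). Dll3 also missed the threshold by DESeq2 (adjusted p = 0.0900), and so did Lfng (0.0599). With cells assigned by Leiden clusters in place of single-cell gates, only Jag2 passed (2.81), and Dll1 (-1.08, edgeR adjusted p = 0.146), Dll3 (-0.03, 0.979), Jag1 (-0.68, 0.341) and Lfng (-1.26, 0.122) did not. The clusters named progenitor-like held 4069 cells, of which 28.1% were progenitor-like by the gate.

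Stem-like cells were compared with the same progenitor-like sums, so this comparison shares them with the one above. Dll1 (-2.52 ± 0.23), Dll3 (-2.79 ± 0.27), Mfng (-2.56 ± 0.51) and Jag1 (-1.33 ± 0.25) were lower in stem-like cells in 3 of 3 tumours. Their edgeR adjusted p-values were 7.30e-07, 1.14e-06, 0.0022 and 0.00153. Dll4 passed as well (-2.92 ± 0.70, edgeR adjusted p = 0.0105), on 12 UMIs in stem-like and 108 in progenitor-like cells, a pooled ratio of 0.115 with a 95% counting interval from 0.0578 to 0.210. All 5 calls were lower, where 8.24% of all genes passed and 2.45% were lower. Lfng (0.32 ± 0.30), Jag2 (-0.48 ± 0.52) and Rfng (0.70 ± 0.23, edgeR adjusted p = 0.0575) did not pass, and Rfng passed in 7 of the alternative settings. Dll1 and Dll3 passed without any single tumour, whereas without tumour 1 Dll4 (edgeR adjusted p = 0.318), Jag1 (0.246) and Mfng (0.384) did not, and without tumour 2 Dll4 (0.0510) and Jag1 (0.0853) did not. With Leiden clusters none of the 8 passed in edgeR (Dll1 -1.53, adjusted p = 0.409; Dll3 -1.66, 0.198; Mfng -2.15, 0.291).

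**Figure D2:**
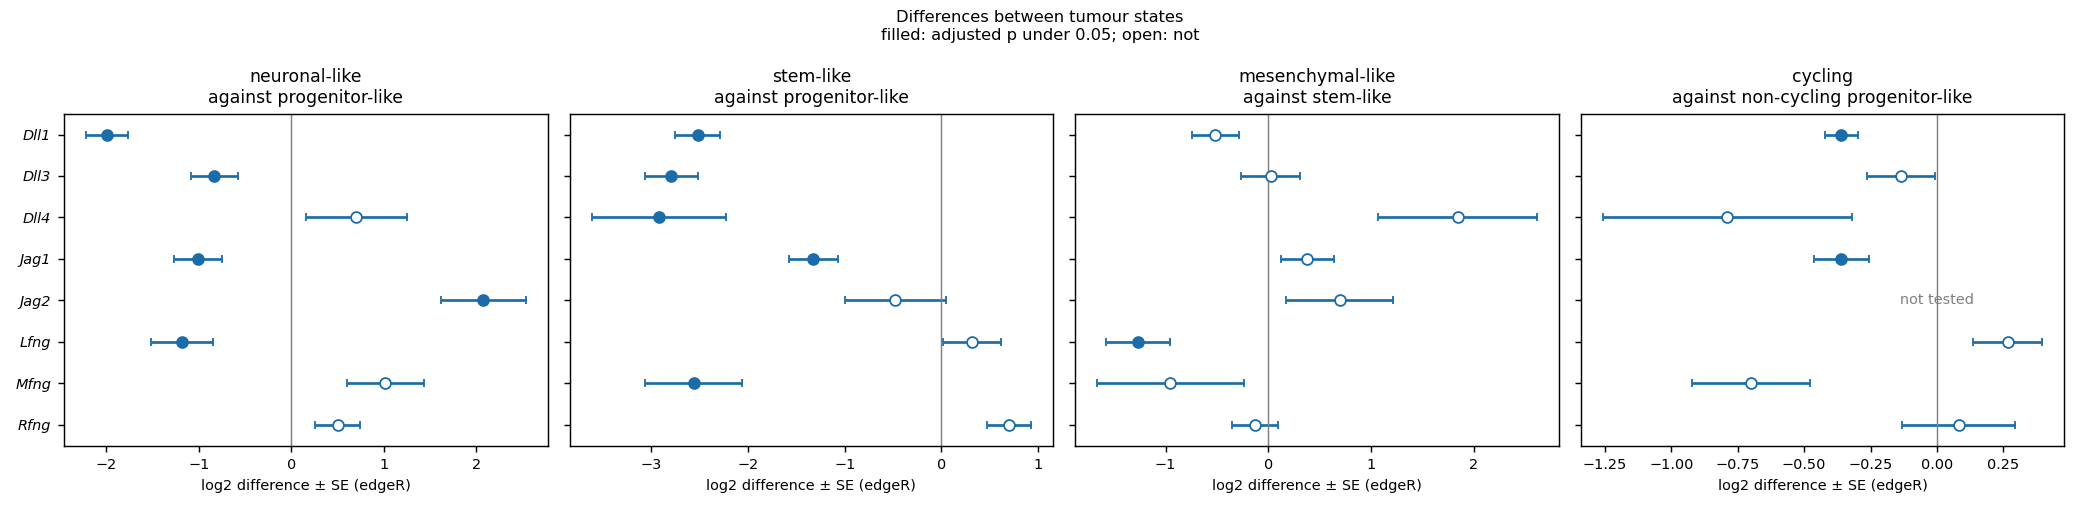
Log2 differences of the 8 genes between tumour states (horizontal axes, points with bars of 1 SE, edgeR; the axes differ in scale), filled where the adjusted p was under 0.05. Dll1 and Jag1 lie left of 0 and filled in 3 of the 4 panels, and Jag2 is filled to the right of 0 only in the neuronal-like panel.

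Between mesenchymal-like and stem-like cells, only Lfng passed, with -1.27 ± 0.31 and an edgeR adjusted p of 0.0248, lower in 3 of 3 tumours, where 2.58% of all genes passed (2.13% higher and 0.445% lower). The levels were 16.4, 18.1 and 40.4 CPM in mesenchymal-like cells. The call did not hold without tumour 1 (-1.08, edgeR adjusted p = 0.576) or without tumour 2 (-1.19, 0.287), nor by DESeq2 (0.110). Dll4 in mesenchymal-like cells came largely from tumour 3, with 5.68 CPM against 0.990 and 0.401 CPM, and the difference of 1.84 ± 0.77 did not pass, but did with no count filter (1.85, edgeR adjusted p = 0.0326).

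Cycling progenitor-like cells (178, 46 and 150 cells with at least 3 of 8 cycling markers) were compared with the other progenitor-like cells. Dll1 was at 243, 221 and 265 CPM in cycling and at 308, 289.7 and 336 CPM in non-cycling cells, so the groups did not overlap. The difference was -0.36 ± 0.06 (edgeR adjusted p = 0.00137). Jag1 was at 71.6, 127 and 28.3 CPM in cycling against 102, 139.9 and 35.1 CPM in non-cycling cells, lower in each tumour, with -0.36 ± 0.10 and an edgeR adjusted p of 0.0340. These 2 of the 7 genes tested passed, both lower, where 13.2% of all genes passed (7.81% higher and 5.43% lower), and Jag2 was below the count filter. Mfng (-0.70 ± 0.22, 0.0537), Dll4 (-0.79 ± 0.47), Lfng (0.27 ± 0.13), Dll3 (-0.14 ± 0.13) and Rfng (0.08 ± 0.21) did not pass. Cycling cells were deeper, with medians of 13416.5, 12683.5 and 28266 UMIs against 9244.5, 7566 and 17014.5, and the part of depth in these differences was not tested. With a stricter gate neither gene passed (Dll1 -0.25, edgeR adjusted p = 0.0674), and Jag1 was also lost without tumour 1 (-0.24, 0.461) and by DESeq2 (0.413). Mfng passed with no count filter (-0.72, edgeR adjusted p = 0.0371) and Lfng without tumour 2 (0.37, 0.0380).

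The vessels were compared with the tumour neural states, taken as the mean of the progenitor-like, neuronal-like and stem-like classes. In endothelial-like cells Dll4 was higher by 6.04 ± 0.37, Jag2 by 5.79 ± 0.29, Mfng by 3.39 ± 0.36 and Jag1 by 1.47 ± 0.23. Dll1 (-3.48 ± 0.36), Dll3 (-3.71 ± 0.55) and Rfng (-0.96 ± 0.34) were lower. All of these went the same way in 3 of 3 tumours, with edgeR adjusted p-values from 7.22e-14 for Jag2 to 0.0188 for Rfng. The 4 higher and 3 lower genes stand beside 55.5% of all genes (25.7% higher and 29.9% lower). Lfng (-0.74 ± 0.40, edgeR adjusted p = 0.121) did not pass, but did with no count filter (-0.84, 0.0138). The call of Rfng was lost without tumour 1 (-0.92, edgeR adjusted p = 0.0551) and without tumour 3 (-0.99, 0.0843).

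Mural-like and endothelial-like cells, the 2 cell types of the vessel wall, differed in which ligand they held. Jag1 was higher in mural-like cells by 1.02 ± 0.30 in 3 of 3 tumours (edgeR adjusted p = 0.0138). Dll4, Jag2 and Mfng were close to absent from mural-like cells, with 2, 1 and 2 UMIs over all tumours against 387, 259 and 209 in endothelial-like cells. In CPM this made endothelial-like levels 91.4 times higher for Dll4 (95% counting interval 25.1 to 757), 122 times for Jag2 (21.8 to 4849) and 49.3 times for Mfng (13.5 to 410.2). In the edgeR test the adjusted p-values of these 3 were 8.62e-06, 7.03e-07 and 0.000157. In all, 4 of the 8 genes passed, against 22.9% of all genes (11.3% higher and 11.6% lower). The call of Jag1 was lost without tumour 1 (1.15, edgeR adjusted p = 0.102), without tumour 2 (0.86, 0.130) and with no replicate block (1.02, 0.244). Leaving out sums of under 50 cells gave 0.76, but kept only tumour 1 in the mural-like class (77, 27 and 47 cells in the 3 tumours). With Leiden clusters, where the mural-like class came from 2 tumours, only Dll4 passed (-3.06, edgeR adjusted p = 0.0106), while Jag2 was at -0.97 (0.504), Mfng at -2.36 (0.0547) and Jag1 at 1.47 (0.0712). No cluster of tumour 2 was named mural-like, and its endothelial-like cluster (99 cells) had the mural marker Rgs5 among its top genes. Of the cells in clusters named endothelial-like, 78.7% were endothelial-like by the gate. With no count filter Lfng passed too (-1.73, edgeR adjusted p = 0.0329). The mural-like class still held 530 to 872 CPM of the 9 endothelial markers in sum, against 11025 to 11206 CPM in endothelial-like cells, and the part of this in the levels was not tested.

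Immune-like cells were lower than the tumour neural states in Dll1 (-2.34 ± 0.24), Dll3 (-2.23 ± 0.31), Jag1 (-1.08 ± 0.26) and Rfng (-0.83 ± 0.24), and higher in Mfng (2.55 ± 0.33), each in 3 of 3 tumours. The edgeR adjusted p-values ran from 6.59e-09 for Dll1 to 0.00361 for Rfng. These are 5 of 8 genes, where 65.2% of all genes passed (31.5% higher and 33.6% lower), a share near the background. Dll4 gave 3 UMIs in immune-like and 180 in tumour neural cells, a tumour level 11.7 times higher in CPM with a counting interval from 3.95 to 57.4, and did not pass (edgeR adjusted p = 0.0595). It did pass by DESeq2 (adjusted p = 0.0272), with no count filter (edgeR adjusted p = 0.00344), with the stricter gate (0.0287) and with only cells failing both filter limits removed (0.0472). Jag2 (0.77 ± 0.43) and Lfng (0.31 ± 0.27) did not pass either, though Lfng did without tumour 3 (0.60, edgeR adjusted p = 0.0298). Without tumour 1 Jag1 did not pass (-0.85, edgeR adjusted p = 0.0736), nor did it with Leiden clusters (-0.95, 0.0565) or with no replicate block (-1.06, 0.0629). The endothelial-like and the immune-like comparisons share the tumour neural sums.

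**Figure D3:**
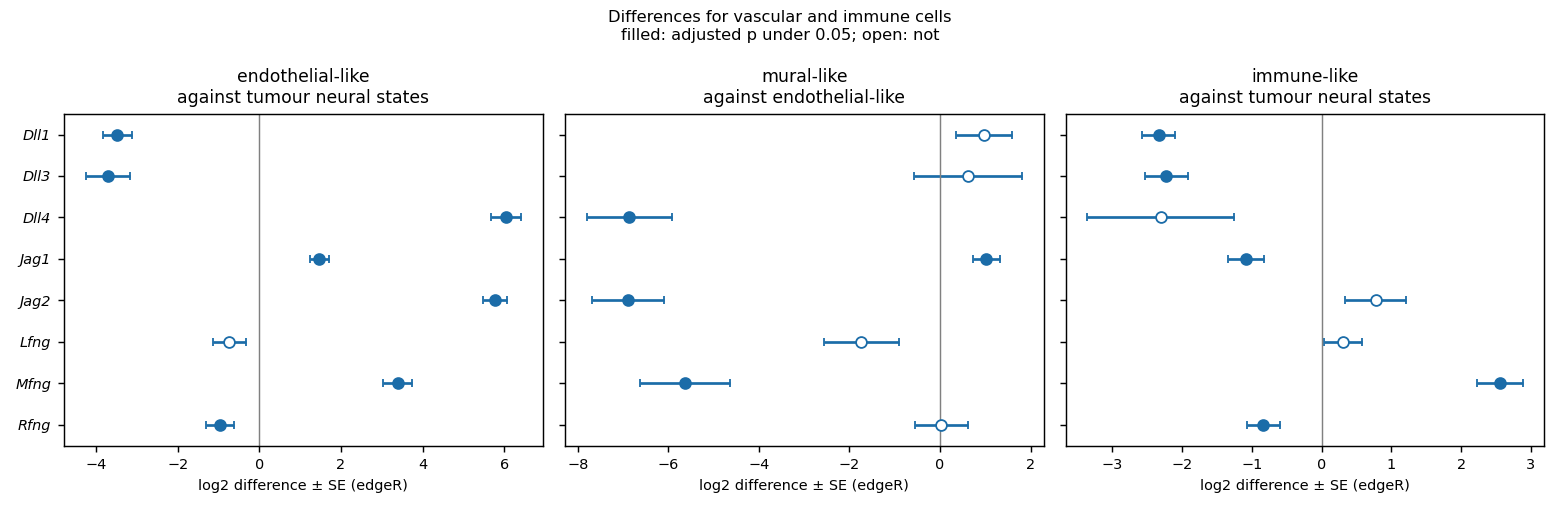
Log2 differences of the 8 genes for vascular and immune cells (horizontal axes, points with bars of 1 SE, edgeR; the axes differ in scale), filled where the adjusted p was under 0.05. Dll4, Jag2 and Mfng lie right of 0 in the endothelial-like panel and left of 0 in the mural-like panel, where Jag1 lies at 1.02, and Mfng alone is filled to the right in the immune-like panel.

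Tumour cells can carry progenitor and neuronal markers together. After the levels had been seen, the tumour cells were split by whether each score passed 0.5, with no test. Dll1 was at 241 ± 4.78 CPM (SD, n = 3) in the 2194 cells with the progenitor score only, at 181 ± 40.2 in the 798 cells with both scores, at 63.7 ± 4.59 in the 1076 cells with the neuronal score only and at 50.5 ± 5.32 CPM in the others. Dll3 had another order, with 51.2, 34.0 and 75.7 CPM for the progenitor score only and 59.6, 55.8 and 83.7 CPM for both scores, higher with both in each tumour. Mfng was at 40.9, 17.3 and 39.5 CPM in cells with both scores, and the highest tumour of the other groups was at 18.1 CPM (tumour 1, neuronal score only), so only tumour 2 overlapped. Dll4 was highest in cells with both scores in tumours 1 and 3, at 6.73 and 24.5 CPM, while in tumour 2 the neuronal score only gave 1.94 CPM and both scores 1.93 CPM. The median depth of cells with both scores (8492, 7144 and 18590.5 UMIs) lay between that of cells with the neuronal score only (7152.5, 5443.5 and 10204.5) and with the progenitor score only (10011, 8111 and 20298).

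**Figure D4:**
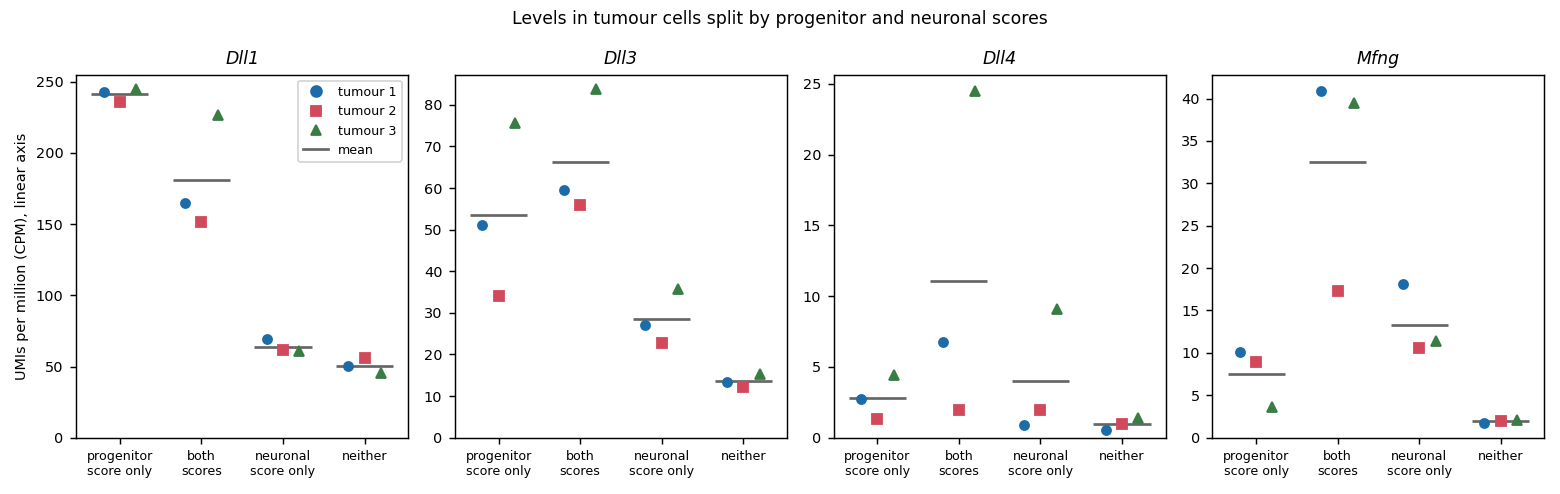
Levels of Dll1, Dll3, Dll4 and Mfng (CPM, linear axes) in tumour cells split by progenitor and neuronal score (horizontal axis), with 1 point per tumour and a bar at the mean. Dll1 steps down from 241 to 50.5 CPM in the mean, whereas Mfng has its highest mean, 32.6 CPM, in cells with both scores.

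Ligands were then followed in single cells. At 2000 UMIs per cell, at least 1 of the 5 ligands was seen in 44.1, 46.2 and 41.0% of progenitor-like cells and in 57.4, 41.9 and 53.4% of endothelial-like cells. The share was 23.3%, 27.1% and 25% in neuronal-like cells, 12.9, 18.6 and 8.62% in stem-like cells and 5.22, 7.89 and 6.80% in immune-like cells. Of the progenitor-like cells, 10.5, 11.7 and 11.0% showed 2 or more ligands.

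Dll1 and Dll3 were seen together more often than independent detection would give. Over the 4947 tumour neural cells, 125 showed both where 59.3 were expected, with ratios of 1.90, 1.70 and 2.83 in tumours 1, 2 and 3 (2.14 ± 0.61, SD). These cells mix states with different levels, and within the progenitor-like cells alone the ratios were 1.38, 1.49 and 1.82, from 53, 18 and 38 cells. Dll1 and Dll3 were together in 13 neuronal-like cells against 8.51, above 1 in 2 of 3 tumours, and in 3 stem-like cells against 2.84. Dll1 and Jag1 were together in 127 cells against 68.3 expected (ratios 1.93, 1.72 and 2.03), and in progenitor-like cells the ratios were 1.44, 1.31 and 2.01. Dll3 and Jag1 stood closer to 1, with 35 cells against 28.8 in the tumour neural cells and 25 against 25.6 in progenitor-like cells. Dll3 and Mfng were together in 18 progenitor-like cells where 6.12 were expected, above 1 in 3 of 3 tumours.

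Hes5, the Notch target of neural stem cells, was seen with Dll1 less often than expected in the tumour neural cells as a whole and in progenitor-like cells, but not in every state. Both were seen in 46 tumour neural cells against 74.3 expected, with ratios of 0.66, 0.55 and 0.60, and within progenitor-like cells in 26 against 43.8 (0.69, 0.39 and 0.57). In stem-like cells the count was near independence (18 against 18.8), in neuronal-like cells it was 2 against 3.25, and in mesenchymal-like cells it was 7 against 5.17, above 1 in 2 of 3 tumours. Lfng and Hes5 were together more often, in 59 cells against 34.6 (ratios 1.97, 1.72 and 1.34), and in progenitor-like cells above 1 in 3 of 3 tumours, from 21 cells. In stem-like cells they were together in 38 against 25.6 cells, above 1 in 2 of 3 tumours. Hes1 and Dll1 were together in 214 tumour neural cells against 207 expected, a pooled value over states that went different ways. They were together in 168 progenitor-like cells against 175, in 19 neuronal-like cells against 13.8 (above 1 in 3 of 3 tumours), in 27 stem-like cells against 36.3 and in 21 mesenchymal-like cells against 25.7, the last 2 below 1 in 3 of 3 tumours. The pairs with Hes1, Hes5 and Notch1 were added after the levels had been seen, and all pairs are a description of cells of 3 animals.

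**Figure D5:**
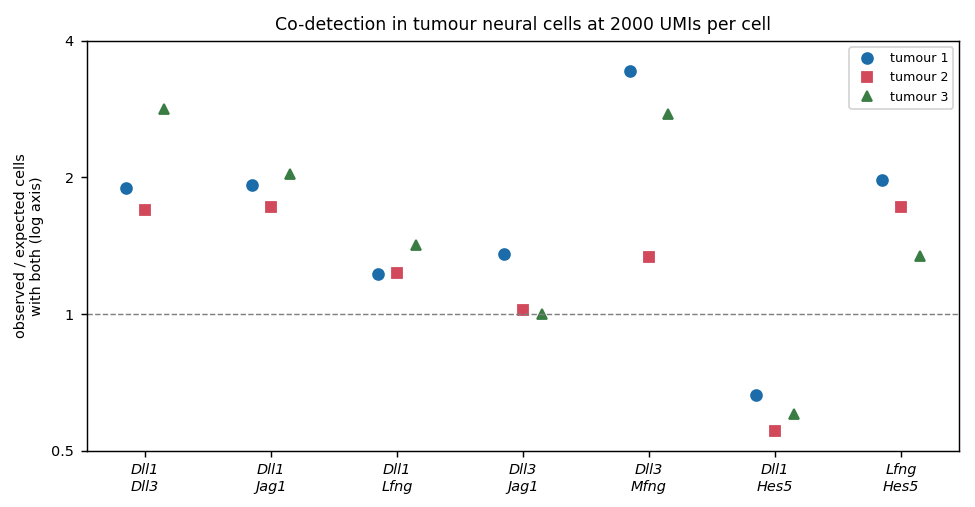
Cells in which 2 genes were seen together, divided by the number expected under independence (vertical, log axis), for 7 pairs of genes in tumour neural cells at 2000 UMIs per cell, with 1 point per tumour. Dll1 with Dll3, Jag1 or Lfng lies above 1 in all 3 tumours, and Dll1 with Hes5 lies below 1 in all 3.

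In endothelial-like cells, Dll4 was set against lists of tip cell genes (Apln, Esm1, Pgf, Angpt2, Cxcr4) and arterial genes (Gja5, Gja4, Bmx, Sox17, Efnb2). Dll4 was seen in 45.5, 37.5 and 46.3% of the cells with a tip cell gene (22, 8 and 41 cells) and in 18.6, 16.7 and 17.6% of the other endothelial-like cells. Cells with an arterial gene showed Dll4 in 26.7, 17.9 and 37.5%, close to the 22.2, 20.6 and 38.1% of the others. Jag1 was seen more often with an arterial gene in tumours 2 and 3 (25% in both, against 8.82% and 9.52%) but not in tumour 1 (20% against 20.6%). Dll4 and Jag2 were together in 15 cells where 13.9 were expected.

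Of 36 other genes of the pathway, 1 was higher and 7 were lower in neuronal-like than in progenitor-like cells, where 16.4% of all genes passed (9.55% higher and 6.85% lower). The targets Hes5 (-1.92), Hes1 (-1.68), Hey1 (-1.59) and Nrarp (-1.45) were lower, 4 of the 6 targets listed, as were the receptor Notch2 (-1.50) and the coactivator Maml2 (-0.63), and none of the 9 genes of receptor cleavage passed. In stem-like cells 2 were higher, the receptor Notch3 (1.40) and Hey1 (0.79), and Rbpj was lower (-0.57), a count of 3 of 36 that is near the 8.24% of all genes. In mesenchymal-like against stem-like cells Hes5 (-1.32) and Nrarp (-0.81) were lower and none was higher, where 2.58% of all genes passed. In cycling progenitor-like cells Nrarp was higher (0.56), and 4 of the 31 genes tested were lower, among them the Notch ligand-like gene Dner (-0.47). These 5 genes are near the 13.2% of all genes that passed.

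In endothelial-like cells 14 of the 36 were higher and 11 lower than in the tumour neural states, where 55.5% of all genes passed. The receptors split, with Notch4 (5.41) and Notch1 (3.15) higher and Notch3 (-3.11) lower, and Dner (-3.53) was lower too. The 6 targets split as well, with 3 higher and 2 lower. The lower targets were Hey2 (-6.92 ± 2.72) and Hes5 (-4.16), the latter on 2, 2 and 3 UMIs in endothelial-like cells. In mural-like against endothelial-like cells 9 were higher and 5 lower, where 22.9% of all genes passed. Notch3, the receptor of vascular smooth muscle, was higher by 7.42 in mural-like cells, with 402, 451 and 335 CPM against 2.14, 4.90 and 0.899 CPM, and Notch4 was lower (-2.48). Of the 6 targets, Hey2 (11.2) and Heyl (8.46) were higher in mural-like cells and Hey1 (-2.02) was lower. In immune-like cells 14 were higher and 12 lower, near the 65.2% of all genes that passed. Adam17 (2.85), a protease gene, was among 8 of the 9 cleavage genes that were higher. All genes named in these counts passed the edgeR test at an adjusted p under 0.05 in the same direction in 3 of 3 tumours.

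The genes most like each member were found by Pearson correlation of log2(CPM + 5) over 27 sums of tumour and class, among 10684 genes. The sums share 3 libraries, and the correlations are a description. With log2(CPM + 1) instead, 1 of the 3 genes named for Dll4 and 1 of the 3 for Jag2 remained. Dll1 was most like Rtn3 (0.87), Gtpbp4 (0.87) and Sox11 (0.86), and Dll3 like Mpp3 (0.91), Ptcd3 (0.87) and Noc3l (0.86). For Dll4 these were Rarres1, Robo4 and AU021092 (each 0.93), for Jag2 Pglyrp1, Zfp366 and Nos3 (each 0.96), and for Jag1 Nr2f2 (0.88), Ginm1 (0.84) and Gjc1 (0.84). Mfng was most like Lmo2 (0.84), Kcnj2 (0.83) and Gch1 (0.82), Lfng like Ttyh3 (0.77), Cntrl (0.76) and Hoxb4 (0.71), and Rfng like Msto1, A630089N07Rik (each 0.82) and 2410002F23Rik (0.81).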

How the data were processed

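The authors deposited raw UMI counts per gene and barcode, made with Cell Ranger 3.1.0 on mm10 per the submitters' processing notes, and each barcode holds at least 500 UMIs. Barcodes under the 5th percentile of detected genes (at least 200 genes) were dropped, as were those whose mitochondrial share exceeded the median by over 3 scaled median absolute deviations (limit at most 20%). Scrublet (scanpy 1.11.5) marked 0, 0 and 1 doublets by its own threshold, so the highest scores were removed at 0.8% per 1000 cells. Host cells needed 0.3% of UMIs from a marker list and 3 of its genes. Tumour states needed a standardised score of 0.5 and a lead of 0.25, limits set after the marker distributions were seen. The genes described and the lists were chosen with earlier results of these data known. Named were the 8 genes, Smarcb1, at most 6 pathway genes per comparison (adjusted p under 0.05, 1 direction in all tumours) and 3 similar genes per member. Notch3 levels, Col1a1, Col1a2, Fn1 and the pairs with Hes1, Hes5 and Notch1 were picked after their values were seen. Counts were summed per tumour and class (at least 20 cells) and tested with the edgeR 4.0.16 quasi-likelihood test (TMM, filterByExpr, tumour as block, Benjamini-Hochberg over all genes tested). All 27 sums entered 1 fit and shared 1 estimate of the spread, while cycling and non-cycling cells had a fit of their own. Sums of 1 tumour are paired because they come from the same animal. Free RNA was not corrected, and counting intervals cover counting error only. Alternatives were DESeq2 1.42.0, RLE factors, no count filter, other cell filters and gates, Leiden clusters and leaving out each tumour. A further gate was run and is not reported here. On simulated data for neuronal-like against progenitor-like cells (13052 genes), 49.5% of changes of log2 1 and 100% of log2 2 were recovered.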

Additional observations from a re-analysis of the deposited data

How the results depend on the processing

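Across the 7 comparisons, counts of the 8 genes past the threshold changed with some settings, and the cause was not tested. With no replicate block (the tumour term left out), 2 passed in neuronal-like against progenitor-like cells, 3 in stem-like against progenitor-like cells and 0 in mesenchymal-like against stem-like and in cycling progenitor-like cells. Jag1 was lost without it in mural-like (edgeR adjusted p = 0.244) and immune-like cells (0.0629), and no called gene changed direction without this pairing. With Leiden clusters, which were not applied to cycling cells, these counts were 1, 0 and 0 for the first 3 comparisons, and 1 in mural-like cells. DESeq2 gave 0 in mesenchymal-like and 1 in cycling cells, no filter gave 2 in mesenchymal-like and 3 in cycling cells, and the stricter gate gave 0 in cycling cells. Leaving out each tumour gave 1 to 5 genes (neuronal-like), 2 to 6 (stem-like), 0 to 1 (mesenchymal-like), 6 to 7 (endothelial-like), 3 to 4 (mural-like), 4 to 6 (immune-like) and 1 to 3 (cycling). The ratio of co-detection of Dll1 and Dll3 stayed between 1.79 and 2.41 over the settings run, and between 1.80 and 2.37 without any 1 tumour.

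Signs turned only for differences that had not passed. Leaving out each tumour, Dll4 in neuronal-like cells ran from -0.93 (without tumour 3) to 1.61. Jag2 in stem-like cells was at 0.46 with Leiden clusters and ran from -0.75 to 0.030 without a tumour. In mesenchymal-like against stem-like cells Dll3 was at -0.016 with no replicate block, -0.0074 where only cells failing both limits were removed, -0.26 with the stricter gate and -0.31 with Leiden clusters (-0.25 to 0.22 without a tumour). The clusters gave Dll4 -0.19, Jag2 -0.72 and Rfng 0.36 there. In mural-like cells, sums of at least 50 cells gave Dll1 -0.13 and Rfng -0.43, with only the mural-like sum of tumour 1 left. Rfng was at -0.11 there with doublets kept and at -0.18 with the stricter gate. Without a tumour Dll1 ran from -0.36 to 1.504 and Rfng from -0.13 to 0.25. Lfng in immune-like cells ran from -0.19 to 0.60. In cycling cells Dll3 was at 0.033 with the stricter gate, and Rfng at -0.0046 by DESeq2, -0.022 with no replicate block and -0.064 to 0.24 without a tumour. Of 29 calls, 25 were kept by DESeq2, 29 with RLE factors and 19 with no replicate block, and 13 of 27 with Leiden clusters. Depth limits Dll4, Jag2 and Mfng in mural-like and stem-like cells, where a few UMIs set the level. The same holds for Dll4 in immune-like cells, Jag2 in progenitor-like cells, and Dll1, Dll3 and Rfng in endothelial-like cells.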
